A study of Mus musculus with 8 samples.

Results

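The genes described here are 10 markers of alternatively activated macrophages: Retnla, Chi3l3, Ccl24, Mrc1, Mgl2, Cd163, Folr2, Il4ra, Pparg and Tgm2. They were taken by gene symbol, with every probe that carries one of these symbols, and make up 15 of the 25697 probes and 10 of the 18138 gene symbols on the array. Macrophages grown from mouse bone marrow were measured on 8 Illumina bead arrays, 2 in each of 4 groups. WT CON cells came from wild type mice and iNOSKO CON cells from iNOS deficient mice, and neither was stimulated. WT M1 and iNOSKO M1 cells received LPS at 200 ng/ml plus IFN-γ at 10 ng/ml for 6 h, the treatment that drives classical (M1) activation. All 4 groups were labelled as female, aged 8 weeks, strain C57bl/6J and grown with GM-CSF for 7 days, and no label names treatment with IL-4 or IL-13. The iNOS deficient mice carry a targeted Nos2 allele in every cell, not in macrophages alone. The paper's methods list this line under its own strain name, which includes a donor strain, apart from C57BL/6J. The part of donor DNA linked to Nos2 in the genotype differences was not tested. Nothing states that the 2 arrays of a group came from separate mice or cultures, so p-values measure only the spread between these arrays, which may be technical.

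IL-4 and IL-13 bind receptors that contain the chain encoded by Il4ra, and JAK kinases then phosphorylate the transcription factor STAT6. STAT6 and its partners, among them the nuclear receptor PPARγ, raise the genes of alternative activation, a state linked to parasite defence, wound repair and tissue remodelling. Retnla (RELMα) and Chi3l3 (Ym1) are secreted proteins that are classical mouse markers of that state, Ccl24 (eotaxin-2) attracts eosinophils, Mrc1 (CD206) and Mgl2 (CD301b) are C-type lectin receptors, Cd163 takes up haemoglobin-haptoglobin, Folr2 binds folate, and Tgm2 is a transglutaminase that crosslinks proteins. The comparisons asked how these markers stood when macrophages met LPS plus IFN-γ, and whether that differed without iNOS, the enzyme that makes nitric oxide in activated macrophages.

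Each probe is a 50-base oligonucleotide, and 5 of them are shown because the results turn on what they bind: the 3 Pparg probes, of which 1 was never detected, and the Chi3l3 and Mgl2 probes, whose genes have close paralogs. They are written 5′ to 3′ in lower case, with no part marked.
Pparg, base 22: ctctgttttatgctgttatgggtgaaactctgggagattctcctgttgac
Pparg, base 287: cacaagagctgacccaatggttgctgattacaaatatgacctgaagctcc
Pparg, base 1436: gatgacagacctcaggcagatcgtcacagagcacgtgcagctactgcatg
Chi3l3, base 68: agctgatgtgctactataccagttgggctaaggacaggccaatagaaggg
Mgl2, base 805: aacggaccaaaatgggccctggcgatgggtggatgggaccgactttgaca
The base is the position in the transcript at which the probe begins, as the deposited table gives it. The table places the Pparg probes on the plus strand of chromosome 6, at chr6:115372112-115372161, chr6:115390024-115390073 and chr6:115440093-115440142, and the Chi3l3 probe on the minus strand of chromosome 3, at chr3:105967147-105967196, in a genome build that it does not name. It gives no position for the Mgl2 probe.

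RefSeq promoter windows of 250 bases before to 50 after a gene's start (build GRCm38.p6) were found for 8 of the 10 genes, and not for Ccl24 and Tgm2. They were searched for the STAT6-type motif TTCNNNNGAA, which reads the same on either strand. The stretch of Retnla that holds a match is shown because no window of another marker gene held one, with the motif in capitals and 25 bases on each side.
Retnla, chr16:48842439-48842498, plus strand: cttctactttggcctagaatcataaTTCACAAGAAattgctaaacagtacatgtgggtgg
The Retnla match begins 145 bases before the start. Of all 32851 promoter windows, 6.95% held the motif. The windows of Chi3l3 (RefSeq symbol Chil3), Mrc1, Mgl2, Cd163, Folr2, Il4ra and Pparg did not hold these letters.

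Values are given as log2 of the scaled intensity, after each array was scaled on probes of stable rank and values under 1 were set to 1, so that 0.00 means at that floor. Levels of different probes cannot be set against each other. A probe counted as detected on an array where its detection p-value was under 0.05, and between 46% and 49.3% of all probes were detected on each array. The filter kept the 13868 probes detected on at least 2 arrays, among them 12 of the 15 marker probes, which stand for 9 of the 10 genes. The 3 others, Folr2 (base 757), Cd163 (base 3847) and Pparg (base 22), were detected on none of the 8 arrays. Ccl24, Il4ra, Cd163 (base 4309) and Pparg (base 287) passed with 5 or 6 arrays detected, that is, through the groups in which they were higher. Folr2 is therefore named here without a change, and its highest value on any array was 0.90.

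The Nos2 probe (base 3546), which reads the deleted gene, was not detected in either CON group. It stood at 7.47 and 7.05 on the WT M1 arrays and at 7.49 and 7.67 on the iNOSKO M1 arrays, at least 27.2-fold and 38.4-fold above the respective CON arrays, and the difference between the M1 groups did not pass in limma (log2 difference 0.32, SE 0.32, 95% interval -0.48 to 1.13, adjusted p = 0.445). The part of Nos2 that the targeted allele lacks is not given in the sources used here, so this probe does not check the genotype labels, and iNOSKO below means the arrays so labelled. All 8 macrophage markers examined (among them Lyz2, Csf1r and Cd68) were detected on every array, and none of 6 lymphocyte markers on any. The summed intensity of the macrophage markers was 29740 to 29870 on WT CON arrays, 31530 to 33920 on WT M1, 23360 to 24270 on iNOSKO CON and 35310 to 36050 on iNOSKO M1. Lyz2 alone gave 15656.3 and 16280.9 of it on WT CON, and 20285.5 and 21460.6 on iNOSKO M1. The summed intensity of 9 dendritic cell markers was 405.7 to 443.9 on WT CON arrays, 6304 to 6417 on WT M1, 4409 to 4550 on iNOSKO CON and 19460 to 20530 on iNOSKO M1. Il4i1 alone gave 4545.9 and 4619.9 of this sum on WT M1, and 13174.0 and 14460.1 on iNOSKO M1. Flt3 was undetected throughout and Cd209a was undetected in WT CON and iNOSKO M1. The summed intensity of 8 granulocyte markers was 1125 to 1148 on WT CON arrays, 1399 to 1505 on WT M1, 1681 to 1747 on iNOSKO CON and 3866 to 3991 on iNOSKO M1, with Mpo undetected throughout. S100a8 alone gave 919.9 and 932.8 of that sum on WT CON, and 2838.5 and 2944.8 on iNOSKO M1. Mmp8, of the same list, was instead highest in WT CON, with means of 7.52, 5.79, 6.19 and 6.18 in WT CON, WT M1, iNOSKO CON and iNOSKO M1. Its log2 changes of -1.73 in the WT response and -1.33 between the CON groups were called. The sum of 7 eosinophil and mast cell markers was 10.48 to 10.53 on WT CON, 36.84 to 49.66 on WT M1, 114 to 118.2 on iNOSKO CON and 133.8 to 149 on iNOSKO M1, with Epx, Ccr3, Il5ra and Ms4a2 undetected throughout. On the iNOSKO arrays most of it was Cpa3, the mast cell carboxypeptidase gene, which was undetected on WT CON and read 4.37 and 4.05 on WT M1, 6.67 and 6.70 on iNOSKO CON, and 6.88 and 7.08 on iNOSKO M1. The other tested genes of this list, both dim, did not follow Cpa3. In the same group order the means were 0.00, 3.67, 2.62 and 2.80 for Prg2, undetected on WT CON and iNOSKO M1. For Fcer1a they were 2.89, 2.83, 2.56 and 1.45. In RNA of a whole culture, fewer cells of a type and less RNA per cell cannot be told apart. The part of these cells in the results below was not tested.

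Retnla was lower in iNOSKO than in WT cells with and without stimulation. It read 8.97 and 9.24 on the WT CON arrays, 8.42 and 8.44 on WT M1, 5.68 and 6.07 on iNOSKO CON, and 5.89 and 5.82 on iNOSKO M1. Every WT array was above every iNOSKO array. Without stimulation Retnla was 9.38-fold lower in iNOSKO (log2 fold change -3.23, SE 0.16, adjusted p = 0.00022), and after M1 stimulation 5.96-fold lower (-2.58, SE 0.16, adjusted p = 0.000307). In WT cells it fell by 0.68 on the log2 scale with stimulation (SE 0.16, adjusted p = 0.027), a call that was lost without WT CON replicate 2 (-0.54, adjusted p = 0.117) without either WT M1 array and without the detection filter (adjusted p = 0.0524). In iNOSKO cells the CON and M1 values overlapped (log2 fold change -0.02, 95% interval -0.43 to 0.39, adjusted p = 0.924). The responses of the genotypes differed by 0.65 (SE 0.23, adjusted p = 0.0707), which did not pass. It did pass after quantile normalization (0.75, adjusted p = 0.0452), under neqc, limma's background and quantile step for bead arrays (0.71, adjusted p = 0.00648), with an intensity trend in the fit (adjusted p = 0.0129), over the probes detected on all 8 arrays (adjusted p = 0.0307) and without iNOSKO CON replicate 2 (0.84, adjusted p = 0.0377).

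Chi3l3 was highest in unstimulated WT cells, and its response to stimulation differed between the genotypes. It fell in WT cells, whereas a rise in iNOSKO cells depended on the scaling. The probe at base 1361 read 11.47 and 11.46 on WT CON, 10.09 and 10.17 on WT M1, 10.34 and 10.31 on iNOSKO CON, and 10.98 and 10.91 on iNOSKO M1. No groups overlapped, and the WT CON arrays stood at the top. It fell by 1.34 on the log2 scale in WT cells (SE 0.08, adjusted p = 0.000319) and rose by 0.62 in iNOSKO cells (SE 0.08, adjusted p = 0.00206), but the latter was 0.10 and not called after quantile normalization (adjusted p = 0.349) or neqc (adjusted p = 0.393). The difference of the responses, 1.96 (SE 0.11, adjusted p = 0.000391), was called under every alternative, between 1.45 and 1.99. Without stimulation the probe was 2.20-fold lower in iNOSKO (adjusted p = 0.00061), whereas after stimulation it was 1.76-fold higher (adjusted p = 0.000977). On the log2 scale the latter difference was 0.82, and between 0.39 and 0.85 under the alternatives.

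The other Chi3l3 probes went the same way in the fit used throughout. At base 68 the values were 9.77 and 9.72 on WT CON, 9.05 and 8.82 on WT M1, 8.57 and 8.56 on iNOSKO CON, and 9.42 and 9.0 on iNOSKO M1. Here the M1 groups of the genotypes overlapped (log2 difference 0.27, adjusted p = 0.226). At base 1167 the values were 11.30 and 11.55, 10.25 and 10.37, 10.26 and 10.35, and 10.66 and 10.78 in the same order. The WT changes were -0.81 and -1.12 on the log2 scale at bases 68 and 1167, the former not called without either WT CON array or WT M1 replicate 2 (adjusted p up to 0.0783), and the genotype differences in CON cells were -1.18 and -1.12, close to the -1.14 at base 1361. The iNOSKO rises, 0.65 at base 68 (adjusted p = 0.0231) and 0.41 at base 1167 (adjusted p = 0.0364), depended on the scaling: after quantile normalization they were 0.41 (adjusted p = 0.0836) and -0.09 (adjusted p = 0.571). The higher level in iNOSKO M1 than in WT M1 at base 1167 (0.41, adjusted p = 0.039) became 0.01 in the same way (adjusted p = 0.966). The difference of the responses passed at both, at 1.46 (SE 0.23, adjusted p = 0.00638) and 1.53 (SE 0.17, adjusted p = 0.00208). Chi3l4 (Ym2), a close paralog with which Chi3l3 probes may share RNA, has a probe of its own that was undetected on all 8 arrays.

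Ccl24 was the marker that stimulation raised in both genotypes. It was undetected on the WT CON arrays (0.89 and 2.01) and read 5.10 and 5.69 on WT M1, 3.44 and 2.61 on iNOSKO CON, and 6.60 and 6.63 on iNOSKO M1. Both M1 groups were above both CON groups. In WT cells the level was at least 7.48-fold higher after stimulation (adjusted p = 0.00307), computed against the lowest detected signal because the CON level was under detection. The size depended on how dim values were treated: the WT log2 change was 3.95 in the fit, 1.4 when values under 16 were set to 16 and 1.42 under neqc, and it was called in each. In iNOSKO cells it rose 12.0-fold (log2 fold change 3.59, SE 0.47, adjusted p = 0.00222), with a log2 change of 2.61 under the floor of 16 and 2.23 under neqc. The genotype differences did not pass. In CON cells the iNOSKO level was at least 1.45-fold higher (adjusted p = 0.0556), since WT CON was under detection, and both groups lay at the floor of 16 when that was set. In M1 cells the log2 difference was 1.22 (SE 0.47, 95% interval 0.02 to 2.41, adjusted p = 0.0853). The arrays of the genotypes did not overlap in either condition. Under the floor of 16 and under neqc the M1 difference did pass (adjusted p = 0.00823 and 0.000132).

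**Figure D1:**
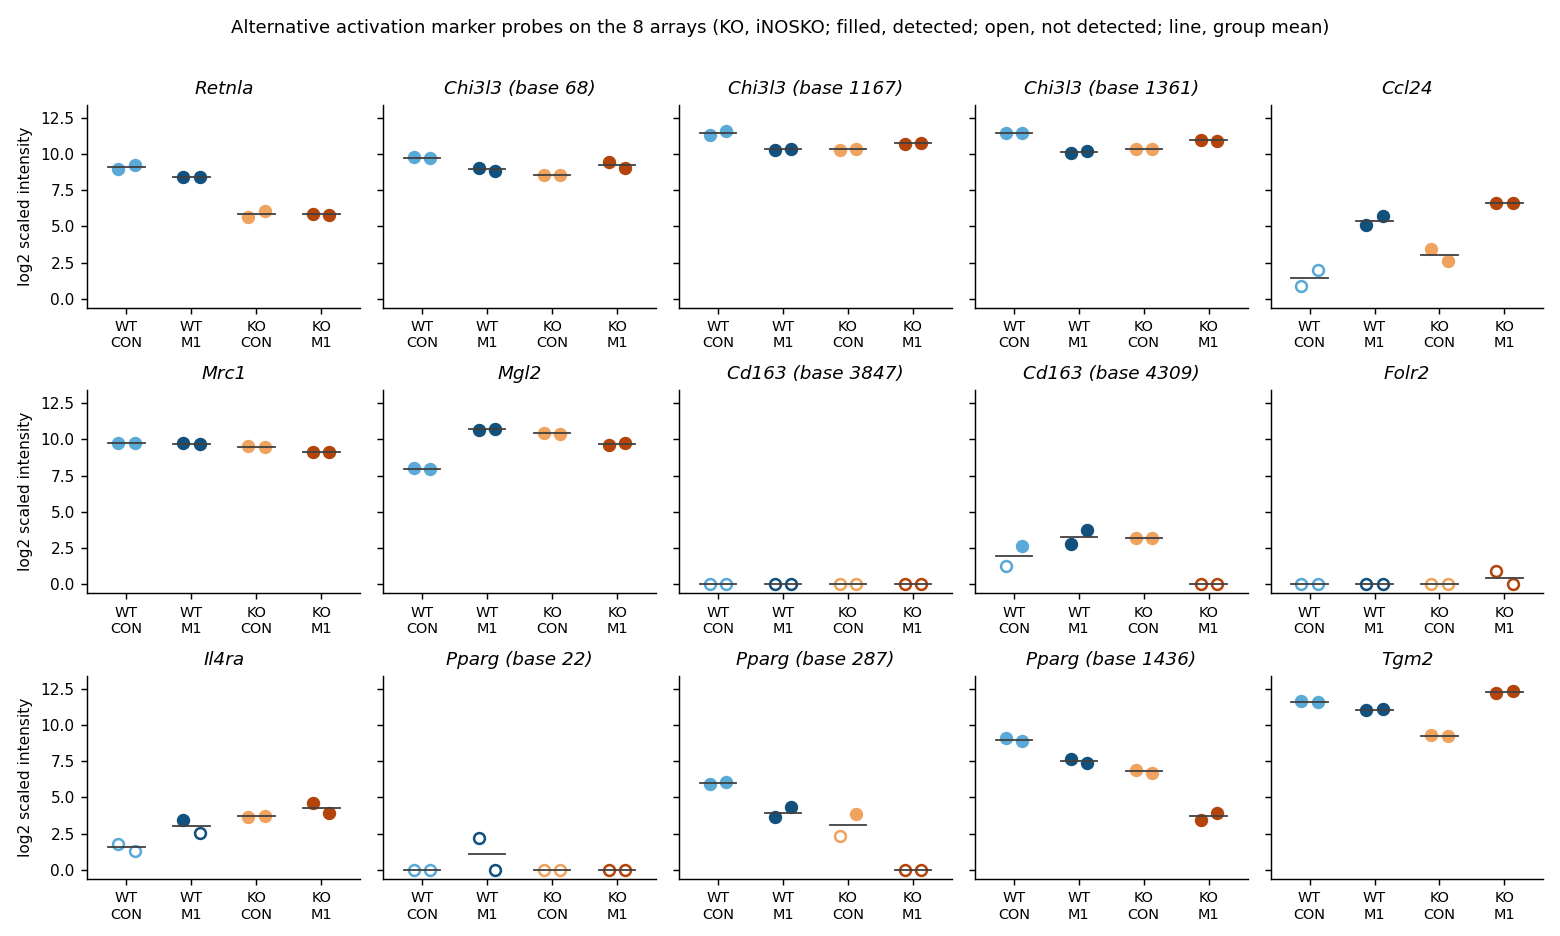
Log2 scaled intensity (y axis) of the 15 marker probes on each of the 8 arrays, by group (x axis; KO, iNOSKO). Filled points were detected (detection p-value under 0.05), open points were not, and lines are means of 2 arrays. Retnla stands between 8.42 and 9.24 on WT arrays and between 5.68 and 6.07 on iNOSKO arrays, and Pparg at base 1436 descends from WT CON to iNOSKO M1.

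Mgl2, a lectin of macrophages and dendritic cells that binds galactose-type sugars, was lowest in unstimulated WT cells. Its values were 8.00 and 7.99 on WT CON, 10.68 and 10.75 on WT M1, 10.44 and 10.38 on iNOSKO CON, and 9.63 and 9.75 on iNOSKO M1. The WT CON arrays stood apart from the 6 others, and iNOSKO CON lay close below WT M1. Stimulation raised Mgl2 6.59-fold in WT cells (log2 fold change 2.72, SE 0.09, adjusted p = 5.22e-05) and lowered it 1.65-fold in iNOSKO cells (-0.72, SE 0.09, adjusted p = 0.00164). The difference of the responses was -3.44 (SE 0.12, adjusted p = 0.000147). Accordingly Mgl2 was 5.33-fold higher in iNOSKO than in WT without stimulation (2.42, SE 0.09, adjusted p = 9.41e-05) and 2.03-fold lower after it (-1.02, SE 0.09, adjusted p = 0.000663). All 5 of these calls held under every alternative. Among the 8 tested dendritic cell markers, Cd209a had means of 0.82 (undetected), 4.97, 5.29 and 0.00 (undetected) in WT CON, WT M1, iNOSKO CON and iNOSKO M1, with WT M1 and iNOSKO CON at the top as for Mgl2. Itgax (CD11c) had means of 7.58, 7.98, 7.98 and 7.54, with the same 2 groups at the top. None of the 4 comparisons between groups was called for Itgax in the main fit. The difference of its responses was called (-0.84), also after quantile normalization (-0.83) and under neqc (-0.78). Its fall in iNOSKO cells was called after quantile normalization (-0.50) and under neqc (-0.46). The 6 others were lowest in WT CON and highest in iNOSKO M1.

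Mrc1, the mannose receptor, spanned the narrowest range of the marker probes detected on all arrays. It read 9.74 and 9.78 on WT CON, 9.72 and 9.70 on WT M1, 9.56 and 9.47 on iNOSKO CON, and 9.14 and 9.12 on iNOSKO M1. The iNOSKO M1 arrays were the lowest. In WT cells the log2 change with stimulation was -0.05 (SE 0.08, 95% interval -0.25 to 0.15, adjusted p = 0.667). In iNOSKO cells Mrc1 fell by 0.39 (SE 0.08, adjusted p = 0.0106). That call was lost without iNOSKO CON replicate 1 (-0.34) and in the fit to the 4 arrays compared (adjusted p = 0.0522). Without stimulation the genotype difference was -0.25 (SE 0.08, adjusted p = 0.0694) and not called, but it passed with a floor of 16 (adjusted p = 0.0076). After stimulation Mrc1 was 1.50-fold lower in iNOSKO than in WT (-0.58, SE 0.08, adjusted p = 0.00288). The difference of the responses was -0.34 (SE 0.11, adjusted p = 0.0607) and did not pass here. It passed after quantile normalization (-0.63, adjusted p = 0.00988) and under neqc (-0.61, adjusted p = 0.00288). It also passed with a floor of 16, an intensity trend, no detection filter, or only probes detected on all 8 arrays (adjusted p at most 0.0396).

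The scavenger receptor Cd163 stayed near background. At base 4309 it read 1.30 (undetected) and 2.66 on WT CON, 2.82 and 3.74 on WT M1, 3.17 and 3.20 on iNOSKO CON, and 0.00 on both iNOSKO M1 arrays, where it was undetected. The probe was called lower in iNOSKO M1 than in iNOSKO CON (adjusted p = 0.00459) and than in WT M1 (adjusted p = 0.00464). Since the lower level is only bounded, these differences are at least 1.22-fold and at least 1.30-fold. Both became 0.00 with a floor of 16. The probe at base 3847 was undetected on every array.

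Il4ra, the receptor chain through which IL-4 and IL-13 act, was also dim. It was undetected on WT CON (1.82 and 1.32), read 3.45 and 2.58 (undetected) on WT M1, 3.64 and 3.75 on iNOSKO CON, and 4.62 and 3.91 on iNOSKO M1. WT CON was the lowest group. The level was at least 2.30-fold higher in iNOSKO CON than in WT CON (adjusted p = 0.012). Il4ra was also called higher in WT M1 than in WT CON (log2 fold change 1.45, SE 0.38, adjusted p = 0.0373). For this size no bound is given, since a WT M1 array was undetected too. Between the M1 groups the log2 difference was 1.25 (SE 0.38, adjusted p = 0.0447). In iNOSKO cells the response was 0.57 (SE 0.38, 95% interval -0.40 to 1.54, adjusted p = 0.27). All 3 called differences were lost with a floor of 16 (adjusted p = 1, 1 and 0.322), and the WT response was also lost after quantile normalization (1.04, adjusted p = 0.104). With single arrays left out, the adjusted p of the CON difference, the WT response and the M1 difference reached 0.0642, 0.153 and 0.173.

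Pparg, which encodes the lipid-sensing nuclear receptor PPARγ, was lower with stimulation and lower in iNOSKO, and was lowest where both met. The probe at base 1436 read 9.09 and 8.88 on WT CON, 7.66 and 7.41 on WT M1, 6.91 and 6.70 on iNOSKO CON, and 3.48 and 3.90 on iNOSKO M1. The groups lay in this order with no overlap, and the iNOSKO M1 arrays were just above the dimmest detected probes there, at 2.879 and 2.92. Stimulation lowered it 2.73-fold in WT cells (log2 fold change -1.45, SE 0.19, adjusted p = 0.00399) and 8.67-fold in iNOSKO cells (-3.12, SE 0.19, adjusted p = 0.000169). In iNOSKO it was 4.52-fold lower than in WT without stimulation (-2.18, SE 0.19, adjusted p = 0.00116) and 14.4-fold lower after it (-3.84, SE 0.19, adjusted p = 0.000198). The response was deeper in iNOSKO by 1.67 on the log2 scale (difference -1.67, SE 0.27, adjusted p = 0.00629). Under neqc the same calls were made with smaller sizes, -2.14 for the iNOSKO response, -2.76 between the M1 groups and -0.72 for the difference. The macrophage marker Cd68 stood in the same order, with means of 12.20, 11.19, 10.64 and 10.27, and Csf1r with 11.75, 11.43, 11.36 and 10.14. Csf1r was not called in the WT response or between the CON groups. The other macrophage markers examined did not stand in this order. Emr1 (means 11.33, 11.22, 11.44 and 11.63), Cd14 (11.12, 11.52, 10.35 and 12.97) and Mertk (9.18, 8.90, 7.73 and 9.89) were highest in iNOSKO M1. Lyz2, Itgam and Fcgr1 were highest in WT M1.

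The Pparg probe at base 287 went the same way in each comparison between groups, at lower signal. It read 5.94 and 6.07 on WT CON, 3.62 and 4.31 on WT M1, 2.33 (undetected) and 3.85 on iNOSKO CON, and 0.00 on both iNOSKO M1 arrays, where it was undetected. It was called lower with stimulation in WT cells (-2.04, SE 0.52, adjusted p = 0.0326) and lower in iNOSKO CON than in WT CON (-2.91, SE 0.52, adjusted p = 0.0115, and 0.0542 or 0.0597 without a WT CON array). That difference was -2.15 without iNOSKO CON replicate 1, on which the probe was undetected, and -3.67 without replicate 2, and it was -2.0 with a floor of 16 and -1.69 under neqc. The probe was also called lower in iNOSKO M1 than in iNOSKO CON (adjusted p = 0.00534) and than in WT M1 (adjusted p = 0.00256). The latter difference is at least 2.09-fold. For the former no bound is given, since an iNOSKO CON array was undetected too. Neither was called with a floor of 16 (log2 differences 0.00 and -0.15). The WT fall was lost in 6 of the 8 fits that left out 1 array (adjusted p up to 0.136). The probe at base 22 was undetected on all 8 arrays.

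Tgm2 was lowest in unstimulated iNOSKO cells and highest in stimulated iNOSKO cells. It read 11.68 and 11.55 on WT CON, 11.00 and 11.10 on WT M1, 9.29 and 9.25 on iNOSKO CON, and 12.18 and 12.34 on iNOSKO M1. No groups overlapped. Stimulation raised Tgm2 7.95-fold in iNOSKO cells (log2 fold change 2.99, SE 0.10, adjusted p = 3.85e-05, and 2.40 under neqc), against a 1.48-fold fall in WT cells (-0.57, SE 0.10, adjusted p = 0.0113). The responses differed by 3.56 (SE 0.14, adjusted p = 0.000173). Compared with WT, Tgm2 was 5.09-fold lower in iNOSKO CON (-2.35, SE 0.10, adjusted p = 0.000145) and 2.31-fold higher in iNOSKO M1 (1.21, SE 0.10, adjusted p = 0.000655). The size of the M1 difference depended on the processing, between 0.68 and 1.29 under the alternatives. The WT fall alone was lost when WT CON replicate 1 (-0.50, adjusted p = 0.0597) or WT M1 replicate 1 (-0.51, adjusted p = 0.0574) was left out.

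**Figure D2:**
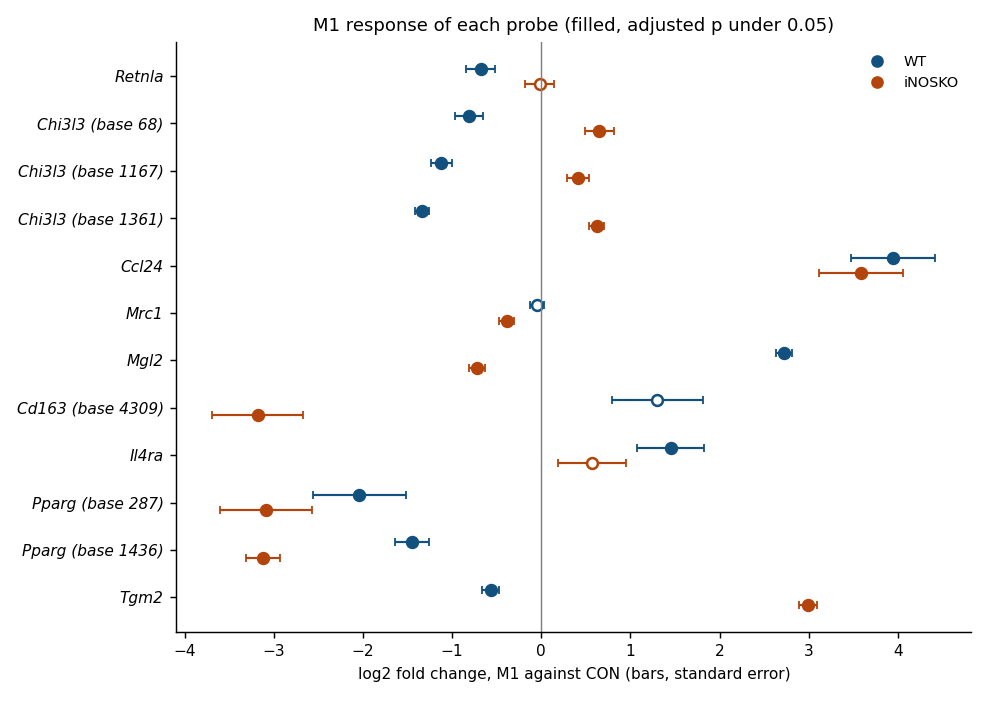
Log2 fold change of M1 against CON (x axis, with standard error) for the 12 tested marker probes (y axis), in WT and in iNOSKO cells. Filled points passed an adjusted p of 0.05. Tgm2 and the Chi3l3 probes lie left of 0 in WT and right of 0 in iNOSKO, Mgl2 the other way (2.72 and -0.72), and both Pparg probes lie left of 0 in both. For Chi3l3 in iNOSKO the side depends on the scaling at base 1167 (-0.09 after quantile normalization).

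Counted over the 12 tested probes, stimulation of WT cells raised 3 (Ccl24, Mgl2 and Il4ra) and lowered 7 (Retnla, the 3 Chi3l3 probes, both Pparg probes and Tgm2), with Mrc1 and Cd163 not called. Among all 13868 tested probes 35.1% were called in that comparison, 20.8% higher and 14.3% lower. The median log2 change of the 12 probes was -0.625, beside 0.0886 over all tested probes. The 12 hold 3 probes of Chi3l3 and both tested probes of Pparg. With only the brightest probe of each gene the median was -0.05. The count called fell to 6 without WT CON replicate 1 and without WT M1 replicate 1.

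In iNOSKO cells stimulation raised 5 probes (the 3 Chi3l3 probes, Ccl24 and Tgm2) and lowered 5 (Mrc1, Mgl2, Cd163 and both Pparg probes), beside 25.2% higher and 25.1% lower, 50.3% in all, of the tested probes. The median of the 12 was 0.195, and -0.02 with only the brightest probe of each gene. After quantile normalization 2 probes were higher, Ccl24 and Tgm2, and the same 5 were lower. Of all tested probes called in WT cells, 59.3% were higher, and 47.4% after quantile normalization or 44.4% under neqc. The median of all tested probes moved from 0.09 to -0.06 in the WT response and from 0.00 to -0.13 in the iNOSKO response under quantile normalization.

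Between the genotypes without stimulation 2 probes were higher in iNOSKO (Mgl2 and Il4ra) and 7 lower (Retnla, Chi3l3 at 3 probes, Pparg at 2 and Tgm2), where 16.7% and 15.4% of all tested probes were called, 32.2% together (4459 probes, and 2728 to 2838 without 1 of the 4 CON arrays). The median of the 12 was -1.13, against 0 over all tested probes, and -0.25 with only the brightest probe of each gene. After stimulation 4 were higher in iNOSKO (Chi3l3 at bases 1167 and 1361, Il4ra and Tgm2) and 6 lower (Retnla, Mrc1, Mgl2, Cd163 and both Pparg probes), beside 22.9% and 25.3%, or 48.2% in all. The difference of the M1 responses was called for 7 probes, 4 positive (Chi3l3 at 3 probes, Tgm2) and 3 negative (Mgl2, Cd163 at base 4309, Pparg at base 1436), beside 42.0% of all tested probes, 19.4% positive and 22.6% negative. These comparisons share groups: the genotype comparisons use the arrays of the stimulation comparisons. With 1 probe a gene, the brightest, 9 genes gave 3 higher and 4 lower in the WT response and 3 higher and 4 lower in the iNOSKO response. In iNOSKO against WT these genes gave 2 higher and 4 lower in CON cells. In M1 cells they gave 3 higher and 5 lower (median -0.58). The difference of the responses was positive for 2 and negative for 3 (median -0.36).

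**Figure D3:**
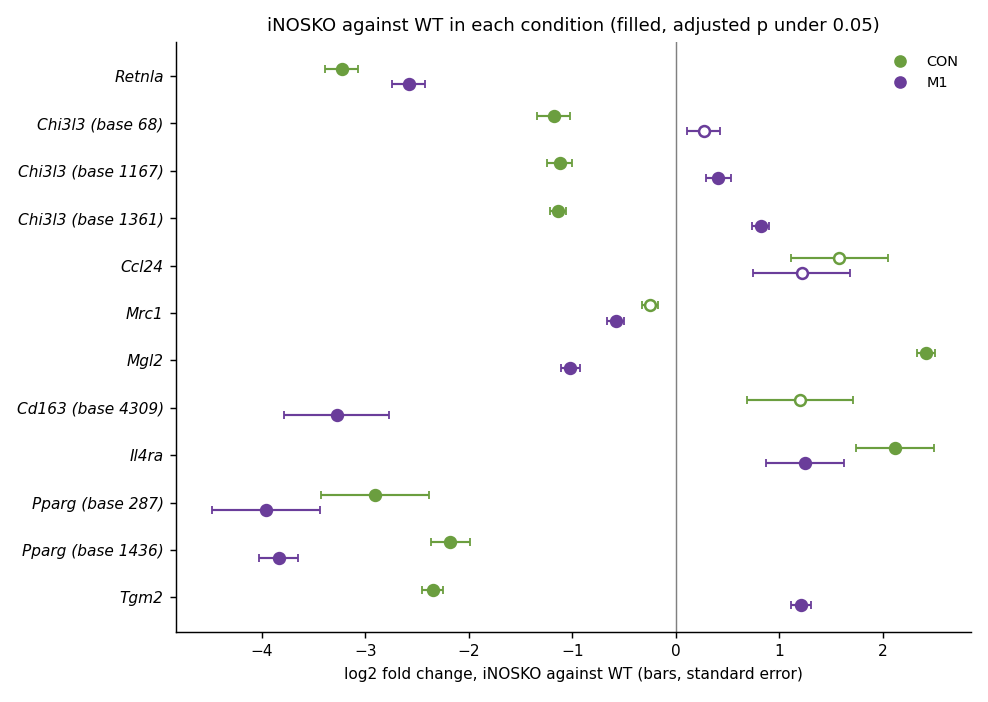
Log2 fold change of iNOSKO against WT (x axis, with standard error) for the 12 tested marker probes (y axis), in CON and in M1 cells. Filled points passed an adjusted p of 0.05. Retnla and Pparg lie left of 0 in both conditions, whereas Mgl2 (2.42 and -1.02) and Tgm2 (-2.35 and 1.21) change sides.

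The probes whose values lay nearest to each marker over the 8 arrays, by root mean square difference after centring each probe, were taken as the 3 nearest genes each. Retnla lay nearest to Sdc1 (syndecan-1, 0.23 on the log2 scale), Myh10 (0.36) and Arg1 (arginase-1, 0.42). Myh10 was at the floor in both iNOSKO groups (means 2.57, 2.57, 0.00 and 0.00), so its distance is set in part by the floor. Arg1 is itself a classical marker and stood at 8.18 and 7.98 on WT CON, 6.80 and 6.68 on WT M1, 4.67 and 4.18 on iNOSKO CON, and 5.11 and 4.94 on iNOSKO M1. Its iNOSKO arrays were all below its WT arrays, as for Retnla. Mgl2 lay nearest to Tmem176b (0.15), Phgdh (0.16) and Aldh18a1 (0.17). For Pparg at base 1436 the nearest was Cd97 (0.14), with mean levels of 10.70, 9.37, 8.73 and 5.53 in WT CON, WT M1, iNOSKO CON and iNOSKO M1, followed by Cln8 (0.24), which was near the floor in iNOSKO M1 (mean 0.06), and Cd28 (0.25). The Cd28 mean in iNOSKO M1, 2.58, was under the lowest detected values there, 2.879 and 2.92.

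Tgm2 lay nearest to 1190002H23Rik (0.12), then to Camk2b (0.23) and Ppap2b (0.25). The Camk2b mean in iNOSKO CON, 2.31, was at the limit of detection there. The Chi3l3 probe at base 1361 lay nearest to Ctss (cathepsin S, 0.12), Clec4d (0.13) and Ubxd8 (0.14), the probe at base 68 to St8sia4 (0.11), Zeb2 (0.12) and Bag3 (0.12), and the probe at base 1167 to Ube2g1, Rnf185 and Sepm (0.10 each). No gene was among the nearest 3 of more than one Chi3l3 probe. Mrc1, which moved little, had neighbours at 0.05 (Ddost) and 0.06 (Klhdc4 and Pja1).

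In the IL-4 and IL-13 pathway, 17 of 18 listed genes were tested, and the Il13ra2 probe was undetected on all arrays. Stimulation of WT cells raised 9 and left 8 not called, with a median log2 change of 0.6, where 35.1% of all tested probes were called and 20.8% were higher. The 5 with the smallest adjusted p (at most 0.00638) were the feedback inhibitors Socs3 (2.71, SE 0.08) and Socs1 (2.24, SE 0.20), the transcription factor Irf4 (1.64, SE 0.10), the phosphatase gene Ptpn6 (0.91, SE 0.09) and the kinase gene Tyk2 (0.60, SE 0.09). In iNOSKO cells 8 rose and 5 fell, with a median of 0.47, beside 25.2% and 25.1% of all tested probes. Here Socs3 (3.17, SE 0.08), Socs1 (2.52, SE 0.20) and Jmjd3 (2.79, SE 0.11), a histone H3K27 demethylase, rose, and Egr2 (-2.19, SE 0.09) and Ppargc1b (-3.11, SE 0.13), a coactivator of nuclear receptors, fell (adjusted p at most 0.000407). Stat6 itself read between 6.92 and 7.49 on the 8 arrays.

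Without stimulation 6 pathway genes were higher in iNOSKO and 1 lower (16.7% and 15.4% of all tested probes), with Irf4 (1.27, SE 0.10), Socs3 (0.73, SE 0.08), Tyk2 (0.69, SE 0.09), Ptpn6 (0.64, SE 0.09) and Socs1 (1.09, SE 0.20) in front (adjusted p at most 0.0133). After stimulation 7 were higher and 4 lower (22.9% and 25.3% of all tested probes). The lower ones included Klf4 (-3.77, SE 0.30), a STAT6-induced factor that stood at 7.77 and 7.80 on WT M1 and at 3.55 and 4.47 on iNOSKO M1, Ppargc1b (-3.38, SE 0.13) and Egr2 (-2.44, SE 0.09), while Jmjd3 (2.15, SE 0.11) and Socs3 (1.19, SE 0.08) were higher (adjusted p at most 0.000563). The responses differed for 10 of the 17 pathway genes, 5 in each direction, where 42.0% of all tested probes were called, 19.4% positive and 22.6% negative. They were led by Egr2 (-2.25, SE 0.13), Ppargc1b (-3.08, SE 0.18), Irf4 (-1.94, SE 0.14), Jmjd3 (2.28, SE 0.16) and Klf4 (-3.45, SE 0.43), with adjusted p at most 0.00285. After quantile normalization 6 of the 17 were called higher and 2 lower in the WT response, and none of the genes named with a value changed direction.

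Of 24 other markers of alternative activation, 22 had a probe (Ccl8 and Fn1 had none under these symbols) and 19 were tested. Stimulation of WT cells raised 7 and lowered 5, with a median of 0.26, beside 20.8% and 14.3% of all tested probes. The leading 5 all rose: the STAT6 target chemokine gene Ccl17 (4.37, SE 0.09), the SOCS-family inhibitor gene Cish (2.66, SE 0.08), the IL-1 receptor antagonist gene Il1rn (1.92, SE 0.09), Mgl1 (1.70, SE 0.10), the paralog of Mgl2, and Cdh1 (E-cadherin, 3.41, SE 0.23), with adjusted p at most 0.000505. In iNOSKO cells 8 rose and 4 fell (median 0.15), beside 25.2% and 25.1% of all tested probes, with Il1rn (4.11, SE 0.09), the apoptotic-cell receptor gene Mertk (2.16, SE 0.10) and Cish (1.10, SE 0.08) up, and the scavenger receptor gene Stab1 (-2.70, SE 0.15) and Mgl1 (-1.68, SE 0.10) down (adjusted p at most 0.000304). Mgl1 thus rose in WT and fell in iNOSKO cells, as Mgl2 did.

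Without stimulation 6 of these genes were higher in iNOSKO, among them Ccl17 (4.22, SE 0.09), Cish (2.21, SE 0.08) and Cdh1 (4.72, SE 0.23), and 7 were lower, among them the growth factor gene Igf1 (-2.58, SE 0.11) and Arg1 (-3.66, SE 0.19), with adjusted p at most 0.000235. Of all tested probes 16.7% were higher and 15.4% lower. After stimulation 6 were higher and 6 lower (22.9% and 25.3% of all tested probes), led by Il1rn (2.22, SE 0.09), Mgl1 (-1.69, SE 0.10), Stab1 (-2.47, SE 0.15), Ear11 (-1.37, SE 0.08), an eosinophil-associated ribonuclease gene, and Igf1 (-1.18, SE 0.11), with adjusted p at most 0.000873. The responses differed for 12 of the 19 genes, 5 positive and 7 negative (19.4% and 22.6% of all tested probes), led by Ccl17 (-3.44, SE 0.13), Mgl1 (-3.38, SE 0.14), Il1rn (2.19, SE 0.12), Mertk (2.45, SE 0.15) and Cdh1 (-5.27, SE 0.33), with adjusted p at most 0.00047. These directions held under quantile normalization and neqc. Ccl17 and Cdh1 are also made by dendritic cells, whose part in these values was not tested.

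**Figure D4:**
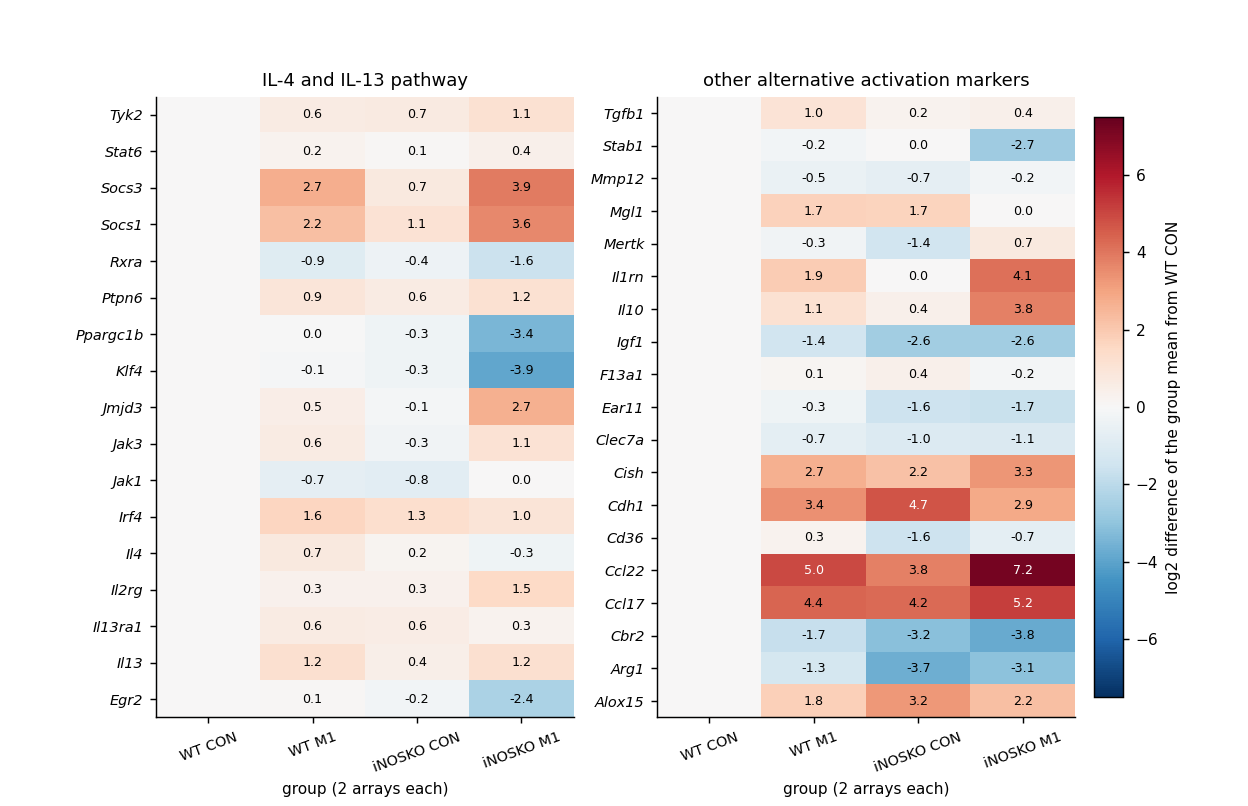
Difference of each group mean (2 arrays, columns) from the WT CON mean, in log2 units and printed in each cell, for the tested genes (rows) of the IL-4 and IL-13 pathway and of the other alternative activation markers. Red is higher and blue lower than WT CON. Klf4, Egr2 and Ppargc1b are low in iNOSKO M1 alone. Arg1 and Igf1 are below WT CON in every other group, further in both iNOSKO groups than in WT M1. Values of dim probes include the floor.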

How the data were processed

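The authors deposited a probe table for 8 arrays, 2 per group, with an intensity per probe averaged over its beads and a detection p-value. GenomeStudio and limma 3.14.4 are named in the submitters' processing notes. The table's header names neither normalization nor background subtraction, yet 25.2% to 27.2% of values per array lie below 0, so no further background was subtracted. The array is given as MouseRef-8 in one source and MouseWG-8 in another. Following the methods, each array was scaled on rank-invariant probes to the mean array (robust line, MASS 7.3.60.0.1), values under 1 were set to 1 and log2 was taken. The methods name this replacement for negative values alone, which was run as an alternative. Marker and other probes entered the tests where 2 or more arrays gave a detection p-value under 0.05. All 8 arrays were fitted together with a mean per group in limma 3.58.1 (R 4.3.3), with Benjamini-Hochberg adjustment over 13868 probes and calls at adjusted p under 0.05. The fit was tested on simulated data. The number of arrays limits the precision.

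Where neither array of a group detected a probe, "at least N-fold" compares the higher mean with a stand-in for the dim group, which takes on each array the larger of the probe's value and the lowest detected value. Such a bound is given only where both arrays of the higher group detected the probe. All marker probes were named. For the other lists, the up to 5 genes with the smallest adjusted p per comparison were named, by each gene's brightest probe, and Nos2 was added. Stat6, Arg1 on each array, Ccl17 and Cdh1 beside the dendritic cell markers, Cd209a, Itgax, Cpa3, Cd68, Csf1r, Klf4 on each array and the unmatched or undetected genes were singled out after their values were seen. So were Il4i1, Lyz2 and S100a8 as parts of the summed intensities, Mmp8, Prg2 and Fcer1a, and the order of the other macrophage markers. Neighbours are the 3 nearest genes of each probe detected on all 8 arrays. The alternatives were other normalizations, floors and filters, a replicate block, an intensity trend, fits to 4 arrays and each array left out. The markers and lists were chosen with earlier results of these data known. The table's columns left 0 value columns without a sample. A search of the promoters for a second motif is not reported here.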

Additional observations from a re-analysis of the deposited data

Results flagged for a closer look

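The response to M1 stimulation differed between the genotypes, by the interaction term of the limma fit, at 7 of the 12 tested marker probes, beside 42.0% of all tested probes. The difference, iNOSKO minus WT on the log2 scale, was 1.46, 1.53 and 1.96 at the Chi3l3 probes at bases 68, 1167 and 1361. It was 3.56 for Tgm2, -3.44 for Mgl2, -1.67 for Pparg at base 1436 and -4.48 for Cd163 at base 4309. The Cd163 value rests on 2 arrays at the floor, where the probe was undetected, and became 0.00 with a floor of 16, -0.66 under neqc, -5.28 with a floor only for values at or below 0, and -3.80 or -5.16 without WT CON replicate 1 or 2.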

How the results depend on the processing

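Over the 12 tested marker probes and 5 comparisons, 46 of 60 results were called, and 28 of them were called in the same direction under every alternative run. Of 988 alternative values, 874 kept direction and call, 75 lost the call, 25 gained it and 14 changed direction. The count of probes called for the difference of the responses was 11 under neqc, against 7. Leaving out 1 array gave 6 to 9 called probes in the WT response, and 6 without WT CON replicate 1 or WT M1 replicate 1. Over all tested probes the WT response had 4869 calls, and 3134 to 3273 without 1 of the 4 WT arrays. The CON genotype comparison had 4459, and 2814 and 2838 without WT CON replicates 1 and 2, and 2728 and 2768 without iNOSKO CON replicates 1 and 2. With a floor only for values at or below 0, the counts of called marker probes were the same in all 5 comparisons, but Cd163 at base 4309 moved from -3.18 to -3.98 in the iNOSKO response and from -3.28 to -4.08 between the M1 groups. The Chi3l3 probe at base 1167 in the iNOSKO response was -0.09 under quantile normalization and under neqc, and the cause was not tested. The other values that changed direction had not been called in the main fit, but some were called after the change. The Retnla response in iNOSKO was 0.06 under quantile normalization, 0.05 under neqc, and -0.21 to 0.17 with 1 array left out. A floor of 16 raises every dim value to the same level. With it the difference of the responses became 1.22 for Ccl24, 0.31 for Il4ra and 1.85 for Pparg at base 287. Under neqc these were 0.81, 0.13 and 0.97. The positive difference was called for Ccl24 (adjusted p = 0.027 with that floor, 0.00878 under neqc). It was also called for Pparg at base 287 (adjusted p = 0.00142 and 0.0041). For Ccl24 the difference of the responses was -0.92 to 0.20 with 1 array left out. A group left with 1 array took its spread from the other groups in the fit. The replicate numbers are used here only to name arrays. Over all tested probes, the correlation of deviations from the group mean on same-numbered arrays lay between -0.04 and 0.02. A link at some probes alone could leave such low values, so they do not settle whether arrays were paired between groups. With the replicate number as a block, 10, 10, 9, 10 and 7 probes were called in the WT response, the iNOSKO response, the CON and M1 genotype comparisons and the difference, as without it. The limit of detection, a log2 value of 2.31 to 2.92 by array, bounds what can be said of Cd163, Il4ra, Ccl24 in WT CON, Pparg at base 287, and Folr2.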
